A study of Mus musculus with 2 samples.

Results

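Messenger RNAs that were common in the unlabeled RNA of mouse embryonic stem cells but scarce in the RNA made during a short pulse were described here. The 300 genes were chosen by the ratio of their exon abundance in labeled RNA to that in unlabeled RNA, the exon ratio. Eligible were protein-coding transcripts with a mean exon abundance of at least 50 over both libraries and values above 0 in both. Each gene was represented by its transcript with the highest mean, and the 300 genes with the lowest exon ratio were taken from 4795 eligible genes. They make up 6.26% of the eligible genes by construction. Because the exon ratio chose the genes, it is given as a description and supports nothing by itself.

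The cells were wild-type (WT) DTCM23/49 XY embryonic stem cells, an established mouse line grown without feeder cells in serum with leukemia inhibitory factor. For 10 min the medium held 200 µM 4-thiouridine (4sU), which takes the place of uridine in RNA made at that time. This RNA was biotinylated and pulled out with streptavidin, which gave the labeled library, and the RNA that stayed behind gave the unlabeled library. Both libraries belong to replicate 1, so no value below has a replicate error and no test was made. The second library is named both preexisting and total in its labels, and is called unlabeled here.

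A short 4sU pulse marks RNA made during the pulse, so the labeled pool is rich in unspliced precursors and in mRNAs that were finished within minutes. The exons of an mRNA reach the labeled pool only after they have been transcribed, whereas the unlabeled pool holds what had accumulated before. At steady state the labeled to unlabeled ratio of an mRNA depends on its processing and decay and on how well it was captured, and not on its rate of synthesis. Long-lived mRNAs are known to have low ratios in such experiments, and rapidly turned over ones high ratios.

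The abundances are relative and per transcript length, in the deposited unit, which was named TPM although a column adds up to 10 times the usual TPM total. A ratio of 1 means an equal share of both libraries, not equal amounts of RNA per cell. The read depth is unknown, so no counting error could be given to a ratio. Intron rows took 15.4% of the labeled and 6.26% of the unlabeled library. All 10 embryonic stem cell markers checked had exon values, with 72.9 to 3453 in unlabeled RNA, and 0 of the 10 were among the 300 genes. The fibroblast markers, which would show leftover feeder cells, summed to 8.07 in labeled and 18.95 in unlabeled RNA, and Col3a1, Lum, Postn and Pdgfrb were listed at 0 in both. The endoderm markers summed to 1.22 and 2.49, and the mesoderm markers to 2.40 and 1.43.

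The 300 genes had a median exon abundance of 66.0 in labeled RNA and of 267.5 in unlabeled RNA. The other 4495 eligible genes had medians of 101.5 and 140.3. The exon ratio of the 300 ran from 0.0682 to 0.290 with a median of 0.251 (95% interval 0.247 to 0.257, from the order statistics, which covers the number of genes only). The median was 0.670 in the other eligible genes, 0.631 in all of them and 3.05 in the 300 genes at the opposite end. Only 5 of the 300 genes had an exon ratio under 0.1 and 47 one under 0.2, while 156 lay at 0.25 or above, so the set is the edge of a continuous distribution. Just inside the limit were Elovl5, which elongates polyunsaturated fatty acids, Msn, which links actin to the membrane, and the zinc finger gene Zfp106, at exon ratios of 0.2893 to 0.2897. Zc3hav1, an antiviral RNA-binding protein, Atp13a3, a transport ATPase, and Chd4, a chromatin remodeler, lay just outside at 0.2899 to 0.2902.

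**Figure D1:**
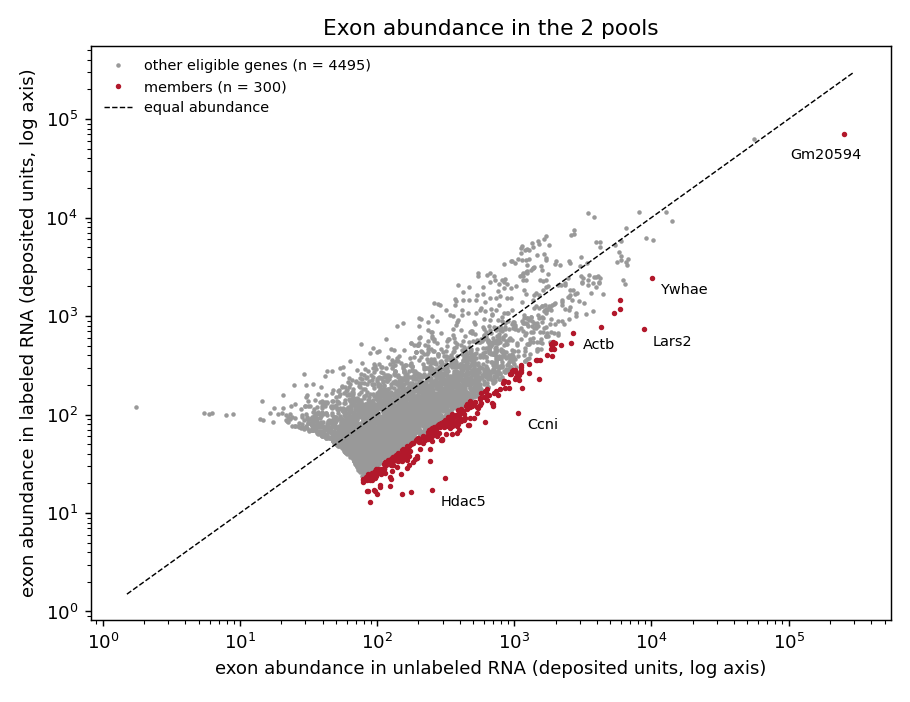
Exon abundance of each eligible gene in unlabeled RNA (x axis) and labeled RNA (y axis), both in deposited units on log axes, with 1 point per gene, the 300 chosen genes in red, the other 4495 in grey and equal abundance as the dashed line. The 300 genes form the lower edge of the cloud at all abundances, from Ammecr1 at 12.9 in labeled RNA to Gm20594 at 71132.9.

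The lowest exon ratio belonged to Hdac5, a class II histone deacetylase on chromosome 11. It stood at 17.1 in labeled and 251.1 in unlabeled RNA, a ratio of 0.0682. Ube3a, the ubiquitin ligase of the Angelman syndrome locus on chromosome 7, had 22.6 and 310.5, a ratio of 0.0727. Lars2, the mitochondrial leucyl-tRNA synthetase on chromosome 9, had 731.8 in labeled and 8746 in unlabeled RNA, a ratio of 0.0837. It was far more abundant than the other genes of the lowest 10 in both libraries. The intron to exon ratio of Lars2 in unlabeled RNA was 0.000383, against a median of 0.0177 in the chosen genes. Of its 31-base words, 1.09% also occurred in transcripts of another gene. The part of reads from other genes in the Lars2 value was not tested.

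Cldnd1, a claudin domain protein, had 16.3 and 178.0 (ratio 0.0916), and Ccni, the atypical cyclin I, 103.6 and 1065 (ratio 0.0973). The remaining 5 of the lowest 10 were B4galt5 (exon ratio 0.103), a galactosyltransferase of glycolipid synthesis, Tnpo1 (0.135), the transportin 1 import receptor, Daxx (0.137), a histone H3.3 chaperone, Ammecr1 (0.145) and Cpox (0.151), an enzyme of heme synthesis.

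In 6 of these 10 genes the ranked transcript was an annotated fragment, whose model lacks a start or an end. For Hdac5 the ranked transcript had 5 exons, whereas the 4 complete models of the gene had exon ratios of 0.160 to 0.217. The 5-exon Ube3a fragment compares with complete models at 0.142, 0.163 and 0.217. In Daxx the complete models lay at 0.366 and 0.469, above the limit for the 300 genes. In Ccni, by contrast, the complete model had 84.7 in labeled and 554.8 in unlabeled RNA, a ratio of 0.153. Lars2, Cldnd1, Ammecr1 and Cpox rested on complete models. In these 6 genes the ranked fragment had a lower ratio than each complete model of the gene with a mean of at least 10. The choice of the lowest ranked ratios favors this order. Other fragments of the same genes were not low throughout, such as 1 of Hdac5 at 0.806, 1 of Ube3a at 1.04 and 1 of Daxx at 0.470, and in Cldnd1 a fragment lay at 0.133, above its complete models at 0.0841 and 0.0916. How reads were divided between overlapping models was not tested.

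Fragments made up 67 of the 300 genes (22.3%, 95% Wilson interval 17.99 to 27.4%) against 559 of 4495 other eligible genes (12.4%, 11.5 to 13.4%). Caprin1, Dhx9, Plk4, Prpf8 and Jarid2, described below, were among the 67. Sharing of sequence with other genes was less common among the 300. At least 50% of the 31-base words of the transcript occurred in transcripts of another gene for 20 of the 300 (6.67%), for 12.3% of the other eligible genes and for 29.0% of the 300 genes with the highest ratio. Tnpo1, Ccni, Ahcy, Csnk2a1, Cpne1, Ube2v1, Tpm3 and both gene entries of Sept2 were among these 20, and their values are uncertain.

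The rule ranked 1 transcript per gene, so the other coding transcripts of the same genes give a readout that did not rank them, although isoforms share reads. With a mean of at least 10, there were 660 such transcripts from 212 of the 300 genes, with a median exon ratio of 0.305 (95% interval 0.300 to 0.314). Of them, 270 (40.9%) lay at or below the limit of the 300 genes and 639 (96.8%) below 1. The 7707 other transcripts of the remaining eligible genes had a median of 0.648, and 2.96% lay at or below the limit. The sum over all coding transcripts of a gene contains the ranked transcript, and for the 86 of the 300 genes with 1 coding transcript it is the value they were chosen by. Among the other 214 genes the summed exon ratio had a median of 0.279 and ran from 0.0972 to 0.531, with 123 of them at or below the limit. Genes described below whose sum lay above the limit include Gspt1 (0.304), Jarid2 (0.326), Pabpc1 (0.327), Arpc4 (0.329) and Plk4 (0.459).

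The genes with the highest mean among the 300 were led by Gm20594, a predicted single-exon gene of 449 bases on chromosome 6. It had 71132.9 in labeled and 253462.6 in unlabeled RNA, an exon ratio of 0.281. It alone made up 0.711% of the labeled and 2.53% of the unlabeled library, and the other 299 genes together 0.367% and 1.61%. Of the 419 31-base words of Gm20594, 42 (10.0%) also occurred in mt-Rnr2, the mitochondrial large ribosomal RNA, and 0 in mt-Rnr1, the small one. The part of mitochondrial ribosomal RNA reads in its value was not tested.

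Ywhae was next by mean, followed by Lars2, Pabpc1, Caprin1, Ywhaz and G3bp2. Ywhae and Ywhaz encode 14-3-3 proteins, which bind phosphorylated partners. Ywhae had 2460 in labeled and 10125.7 in unlabeled RNA (exon ratio 0.243) and Ywhaz 1065 and 5371 (0.198). Pabpc1, the main cytoplasmic poly(A)-binding protein, had 1454 and 5894 (0.247). Caprin1, a partner of stress granule proteins, had 1185 and 5873 (0.202), and G3bp2, a stress granule scaffold, 768.8 and 4306 (0.179).

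Actb, which encodes the cytoplasmic beta-actin, had 674.6 and 2697 (exon ratio 0.2501). Ptges3, the p23 cochaperone of Hsp90, and Dhx9, an RNA helicase, completed the abundant genes at exon ratios of 0.207 and 0.228. The highest means among eligible genes other than Gm20594 belonged to Npm1, Hsp90aa1, Rpl31 and Gapdh, which had exon ratios of 1.12, 0.890, 1.39 and 0.660.

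The introns of the same transcripts were more abundant in labeled than in unlabeled RNA. Intron values of both libraries were above 0 for 289 of the 300 genes. Their median intron abundance was 24.6 in labeled and 5.47 in unlabeled RNA, over the 292 genes with an intron row. The labeled to unlabeled intron ratio had a median of 4.53 (95% interval 4.25 to 4.71). It was 4.28 (4.23 to 4.36) in 4245 other eligible genes and 4.71 (4.17 to 5.20) in the 300 genes with the highest exon ratio. The intron ratio was above 1 in 280 of the 289 genes (96.9%), near the 98.5% of all eligible genes. It was above the exon ratio in 289 of 289, against 97.2% of all, a count that the choice of low exon ratios nearly fixes. The introns of genes with depleted exons were thus about as enriched in labeled RNA as those of other genes. Across 4534 eligible genes, which share the libraries, the Spearman correlation of exon and intron ratio was -0.05.

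**Figure D2:**
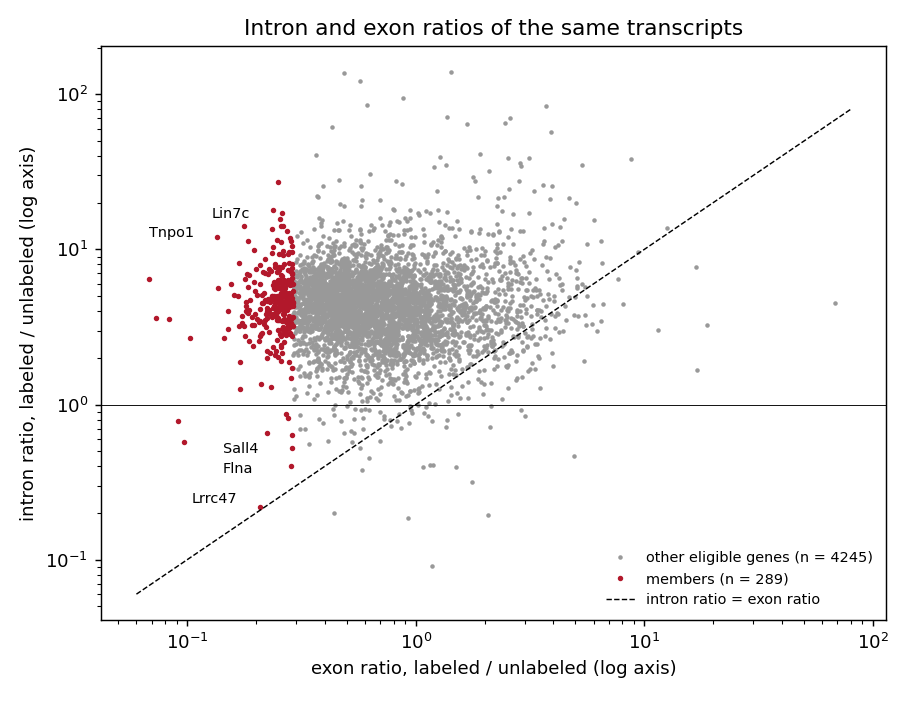
Labeled to unlabeled exon ratio (x axis) and intron ratio (y axis) on log axes, 1 point per gene, the 289 chosen genes with intron values in red and 4245 other eligible genes in grey. The dashed line marks equal ratios and the solid line an intron ratio of 1, and all 289 red points lie above the dashed line, with a median intron ratio of 4.53.

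Among the genes with a mean intron abundance of at least 10, the highest intron ratio was that of Lin7c, a scaffold protein of cell polarity, with 38.6 in labeled and 2.71 in unlabeled introns (intron ratio 14.3). Tnpo1 followed with 46.6 and 3.90 (11.95), and Plk4, the kinase that starts centriole duplication, with 24.1 and 2.11 (11.4). At the other end, Lrrc47 had 7.20 and 32.7 (0.220), Flna, the actin cross-linker filamin A, 9.51 and 23.7 (0.402), and Sall4, a zinc finger factor of pluripotent cells, 26.4 and 50.2 (0.525). In 9 of the 289 genes (3.11%) the intron ratio was below 1, against 61 of 4245 (1.44%) other eligible genes at 1 or less. Besides Lrrc47, Flna and Sall4 these were Ccni, Gnai2, Usp10, Cldnd1, Celf1 and Prpf8. The ranked transcripts of Lrrc47, Flna, Ccni, Usp10 and Prpf8 were fragments, as were those of Tnpo1 and Plk4 at the high end. Their intron values are those of the fragment and not of the whole gene. In Lrrc47 the intron ratio of 0.220 was close to its exon ratio of 0.208. Sall4 was the one gene among the 300 of the 17 eligible pluripotency factors.

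The study places each transcript in a plane of its intron to exon ratios in both pools. The 300 genes had a median intron to exon ratio of 0.332 (95% interval 0.282 to 0.379) in labeled and 0.0177 (0.0160 to 0.0207) in unlabeled RNA. For the other eligible genes the medians were 0.248 and 0.0383, and for the 300 with the highest ratio 0.0830 and 0.0520. As the exon values enter both ratios, these positions are not independent of the choice of genes. Of 289 genes, 23 (7.96%) had a labeled intron to exon ratio of 1 or more, 60 (20.8%) lay above the line of the model, on which the labeled ratio equals the inverse of 2 minus the unlabeled ratio, and 206 (71.3%) lay between line and diagonal. None of the 289 lay below the diagonal, against 119 of 4245 (2.80%) other eligible genes and 73 of 261 (28.0%) of the genes with the highest ratio. A position below the diagonal means an intron ratio no higher than the exon ratio. The choice of low exon ratios therefore nearly fixes this count too.

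**Figure D3:**
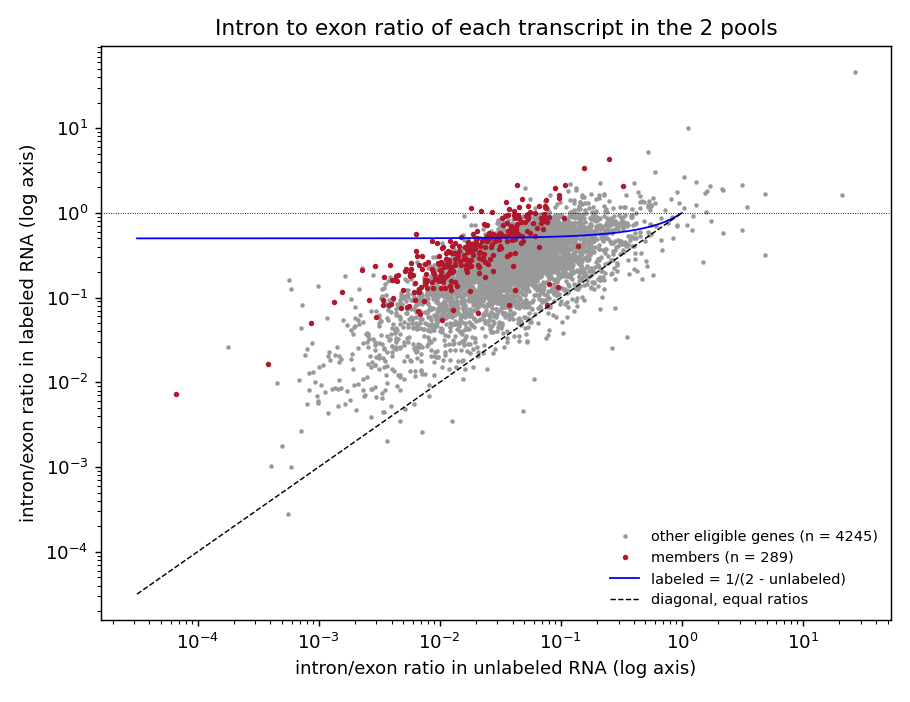
Intron to exon ratio in unlabeled RNA (x axis) and labeled RNA (y axis) on log axes, 1 point per gene, the chosen genes in red and other eligible genes in grey. The blue curve is the line of the model and the dashed line the diagonal of equal ratios, and 60 of 289 red points lie above the curve with a labeled ratio under 1.

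The rate equations of the study were solved for the 266 of these genes with a labeled ratio under 1. For 152 of them no exact solution existed, and the point of least misfit was used. The median mRNA half-life so obtained was 22.2 min (95% interval 19.5 to 25.3) for the chosen genes and 21.3 min (20.6 to 22.0) for 4030 other eligible genes. At the opposite end, 185 genes had 64.9 min. No exact solution existed for 3126 of the 4030 other genes and for 179 of the 185. The medians thus rest to different degrees on the point of least misfit, which was not tested, and that of the 185 genes almost wholly. The median ln processing rate per 10 min was 1.04 for the chosen genes and 0.77 for the others. The order of the half-lives was thus not that of the exon ratios, and the estimate was unstable. Its median ln degradation rate per 10 min was -1.17, and -3.93 over the 72 genes that could still be solved after 0.203 times the unlabeled value, a guess at leakage from the lowest exon ratios, had been subtracted from the labeled value.

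Features of the transcripts that did not enter the rule differed between the chosen genes and the others. The spliced transcript had a median length of 2948 bases (95% interval 2642 to 3223) in the 300 genes, 2108 (2046 to 2183) in the other eligible genes and 737.5 in the 300 with the highest ratio. The coding part was similar, at 1158 and 1080 bases. The 3′ UTR differed more, with a median of 1374 bases (1179 to 1608) in the 250 genes with an annotated stop codon and 655 (613 to 686) in 4117 others. The unspliced transcript was also longer, at 28732.5 bases (26053 to 33577) against 18939 (18116 to 19741), with a median of 8 exons in both. The 300 genes had a median of 761.5 uridines (699 to 833) per mature transcript against 526, and uridine made up 26.3% against 24.9% of the bases. How the number of uridines bears on capture was not tested.

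The share of eligible genes that were chosen depended on length. It was 3.18% at spliced lengths of 1000 to 2000 bases and 9.59% at 4000 to 6000 bases. Among transcripts under 500 bases it was 7.80%, but 1.94% when only complete models were counted. By 3′ UTR length the share went from 3.04% under 250 bases to 10.9% at 4000 bases or more. Over all 4795 eligible genes the Spearman correlation of exon ratio and spliced length was -0.45, and that of intron ratio and spliced length was 0.11 over 4534. Within each quartile of mean exon abundance the chosen genes had the longer median spliced transcript, but the gap was small in the second. From the lowest quartile to the highest the medians were 3238 against 2324 bases, 2618 against 2444, 3078 against 2146 and 2878 against 1579.

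**Figure D4:**
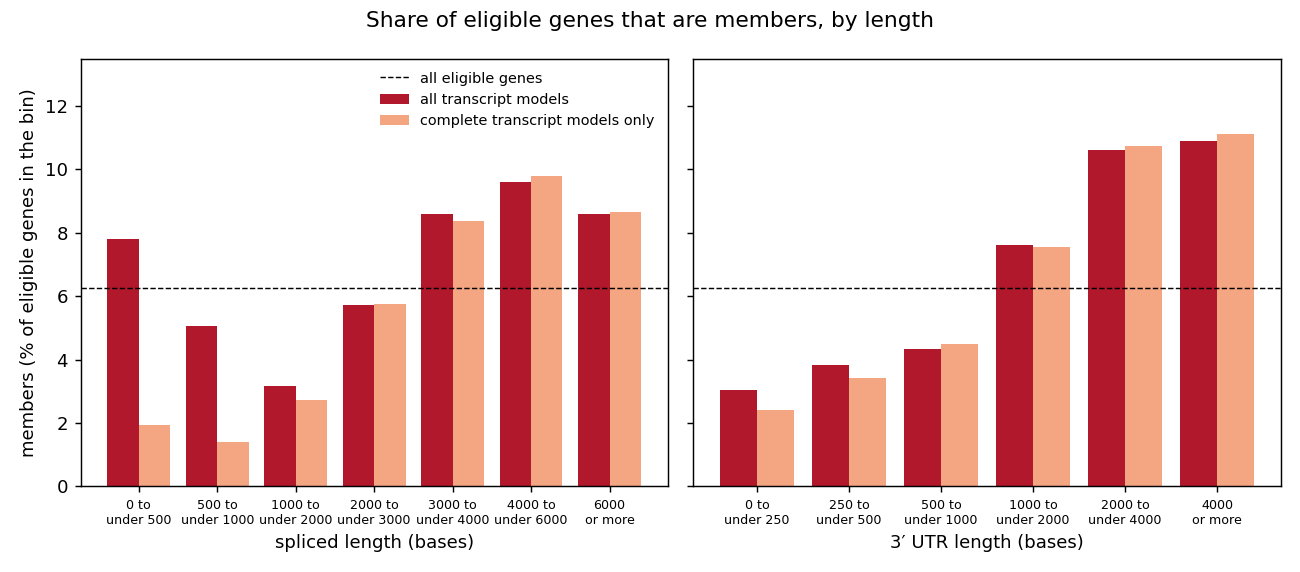
Share of eligible genes that were among the 300 (y axis, percent of the genes in the bin, bars from 0) by spliced length (left) and 3′ UTR length (right), for all transcript models in red and complete models in orange, with the share over all eligible genes as the dashed line. The share goes from 3.04% to 10.9% across the 3′ UTR bins, and the high bar at the shortest spliced lengths is low, at 1.94%, for complete models.

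Since many of the 300 genes have long 3′ UTRs, the sites through which decay factors are known to act were counted there. AUUUA is the core of AU-rich elements, and UUAUUUAUU their longer form, both bound by factors that recruit decay enzymes. UGUANAUA is the element of Pumilio proteins, which act through deadenylation. AGCACUU pairs with the seed shared by the miR-290 and miR-302 families, the abundant microRNAs of embryonic stem cells. Mature sequences of family members are shown from RefSeq (GRCm38.p6) because their common seed, bases 2 to 8 in capitals, defines the site.
mmu-miR-291a-3p: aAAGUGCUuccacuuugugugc
mmu-miR-294-3p: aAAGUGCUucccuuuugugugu
mmu-miR-302b-3p: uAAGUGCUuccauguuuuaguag
Matches are a description of letters on the sense strand of GENCODE M21 transcripts, and the longer AU-rich form contains AUUUA.

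The 3′ UTRs of the chosen genes held AUUUA at 2.16 sites per kilobase (95% Poisson interval 2.02 to 2.30) and those of the other eligible genes at 2.13 (2.09 to 2.18). UUAUUUAUU occurred at 0.0388 sites per kilobase (0.0226 to 0.0621), 17 sites in 13 genes, against 0.0800 (0.0720 to 0.0886) in the others. UGUANAUA stood at 0.267 (0.221 to 0.320) against 0.290 (0.274 to 0.306). AGCACUU had 0.0799 (0.0556 to 0.111), 35 sites in 34 genes, against 0.127 (0.117 to 0.138). The intervals cover the number of sites only and take them as independent. Sites of overlapping gene entries were counted for each entry, such as a UGUANAUA site of both Ctnnd1 and Gm28635. Over all lengths, the density of the long AU-rich form and of the microRNA site was lower in the chosen genes, and that of AUUUA about the same.

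Longer 3′ UTRs hold more sites, so shares of genes with a site were also counted within bins of length. For UUAUUUAUU the direction differed between bins. The share with AGCACUU was lower in the chosen genes in each bin given, though only narrowly at 100 to 500 bases. At 3′ UTRs of 500 to 1000 bases, UUAUUUAUU occurred in 8.33% of 36 chosen genes, more than the 3.39% of 796 others, and AGCACUU in 2.78% and 7.79%. At 100 to 500 bases the shares were 0 of 39 and 1.88% of 1278 for UUAUUUAUU, and 2.56% and 2.74% for AGCACUU. At 3′ UTRs of 1000 to 2000 bases, UUAUUUAUU occurred in 2.82% of 71 chosen genes and 10.7% of 863 others, and AGCACUU in 9.86% and 15.2%. At 2000 to 4000 bases the shares were 9.38% of 64 and 13.4% of 539 for UUAUUUAUU, and 25% and 27.5% for AGCACUU. Over all eligible genes with a stop codon, 6.09% held UUAUUUAUU and 11.5% held AGCACUU in the 3′ UTR. Over all lengths, UUAUUUAUU was held by 5.2% of 250 chosen genes and 6.15% of 4117 others. AGCACUU was held by 13.6% and 11.3%, so its share was higher in the chosen genes although its density was lower. The same held for UGUANAUA, at 31.6% and 22.0%, while AUUUA was held by 74.8% and 61.3%. Within the 4 bins, from short to long, UGUANAUA was held by 10.3% and 9.31%, 22.2% and 18.1%, 33.8% and 30.5%, and 48.44% and 50.65%.

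Sites from genes described below are printed on the transcript strand with the match in capitals and 10 bases on either side, on GRCm38, all within the 3′ UTR. They show the microRNA site in Ywhaz (chr15:36772275-36772301, minus strand), in Trim71 (chr9:114510072-114510098, minus strand) and in Rab6a (chr7:100641062-100641088, plus strand), and the Pumilio element in Lin28a (chr4:134004353-134004380, minus strand) and Cnot1 (chr8:95720160-95720187, minus strand).
Ywhaz: taaggcctggAGCACTTgtgaggctgt
Trim71: attggtgctaAGCACTTtggagagtgt
Rab6a: acatttggagAGCACTTggattatgga
Lin28a: ggcctagttgTGTAAATAtaaatgtgtt
Cnot1: tttgaacttgTGTAAATAtatgaaagag

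Gene groups were counted against the 6.26% of eligible genes that the 300 make up. The groups were lists of gene symbols and do not hold every gene of their kind. Of the 300 genes, Lars2 was outside the synthetase list and Scd3 outside the cholesterol and fatty acid list. Gspt2, Pabpc2 and Pabpc6 were outside the translation factor list. Of the 22 groups named in the design that held eligible genes, 8 had no gene among the 300 and 7 had a share above 6.26%. The 83 cytosolic ribosomal protein genes had 0 among the 300, with a median exon ratio of 2.68, and the lowest of them, Rpl4, had 0.965. Of these 83 genes, 51 lay among the 300 with the highest ratio. The 83 nuclear genes of oxidative phosphorylation also had 0 among the 300, with a median of 2.23, and the 53 mitochondrial ribosomal protein genes had 0 and a median of 1.36. These are groups of short, abundant mRNAs that are known for stability, with median spliced lengths of 679, 625 and 995 bases. The proteasome (0 of 41), glycolysis (0 of 12), redox and iron storage (0 of 34), replication-dependent histone (0 of 54) and histone variant (0 of 15) groups had no gene among the 300 either.

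Secretory pathway genes had 5 of 53 (9.43%) among the 300. Copa, a coat protein of Golgi vesicles, stood at 86.6 in labeled and 334.5 in unlabeled RNA (exon ratio 0.259), Ssr3, a translocon subunit, at 283.6 and 1116 (0.254), and Spcs3, a signal peptidase subunit, at 57.7 and 242.1 (0.238). Ubiquitin system genes had 4 of 50 (8%), with the ligase scaffold Cul3 at 183.9 and 921.0 (0.1997), the conjugating enzyme variant Ube2v1 at 0.224 and the activating enzyme Uba6 at 0.249.

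Chaperones had 4 of 60 (6.67%), with Ptges3, Dnajc13 and the prolyl isomerase Fkbp1a at 0.207 to 0.237. The cytoskeletal group had 3 of 41 (7.32%), Actb, Arpc4 of the Arp2/3 complex and the tropomyosin Tpm3. Translation factors had 3 of 61 (4.92%): the termination factor Gspt1 with 253.9 and 1082 (0.235), Pabpc1, and the eIF4E inhibitor Eif4ebp2 with 150.1 and 601.6 (0.2495). The spliceosome group had 3 of 73 (4.11%), Prpf8, the core splicing factor, Hnrnpul1 and Lsm14b. Zinc finger Zfp genes had 4 of 150 (2.67%). The shares of these groups, from 2.67% to 9.43%, lay on both sides of the background of 6.26%.

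Smaller counts came from the lysosome (2 of 25, Laptm5 and Atp6v1a) and the matrix and adhesion group (2 of 12, laminin Lamc1 and integrin Itga6). The listed aminoacyl-tRNA synthetases had 1 of 21, Vars, in a list without Lars2. One gene each came from DNA replication (1 of 41, Orc3), cholesterol and fatty acid synthesis (1 of 19, the desaturase Scd1), pluripotency (1 of 17, Sall4) and the immediate early genes (1 of 11, Myc). The matrix and adhesion group had a median exon ratio of 0.360, the lowest of these groups. Of its 12 genes, 10 were below the median of all eligible genes, the 2 chosen ones included. Of the 300 genes, 35 were in at least 1 of the groups.

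**Figure D5:**
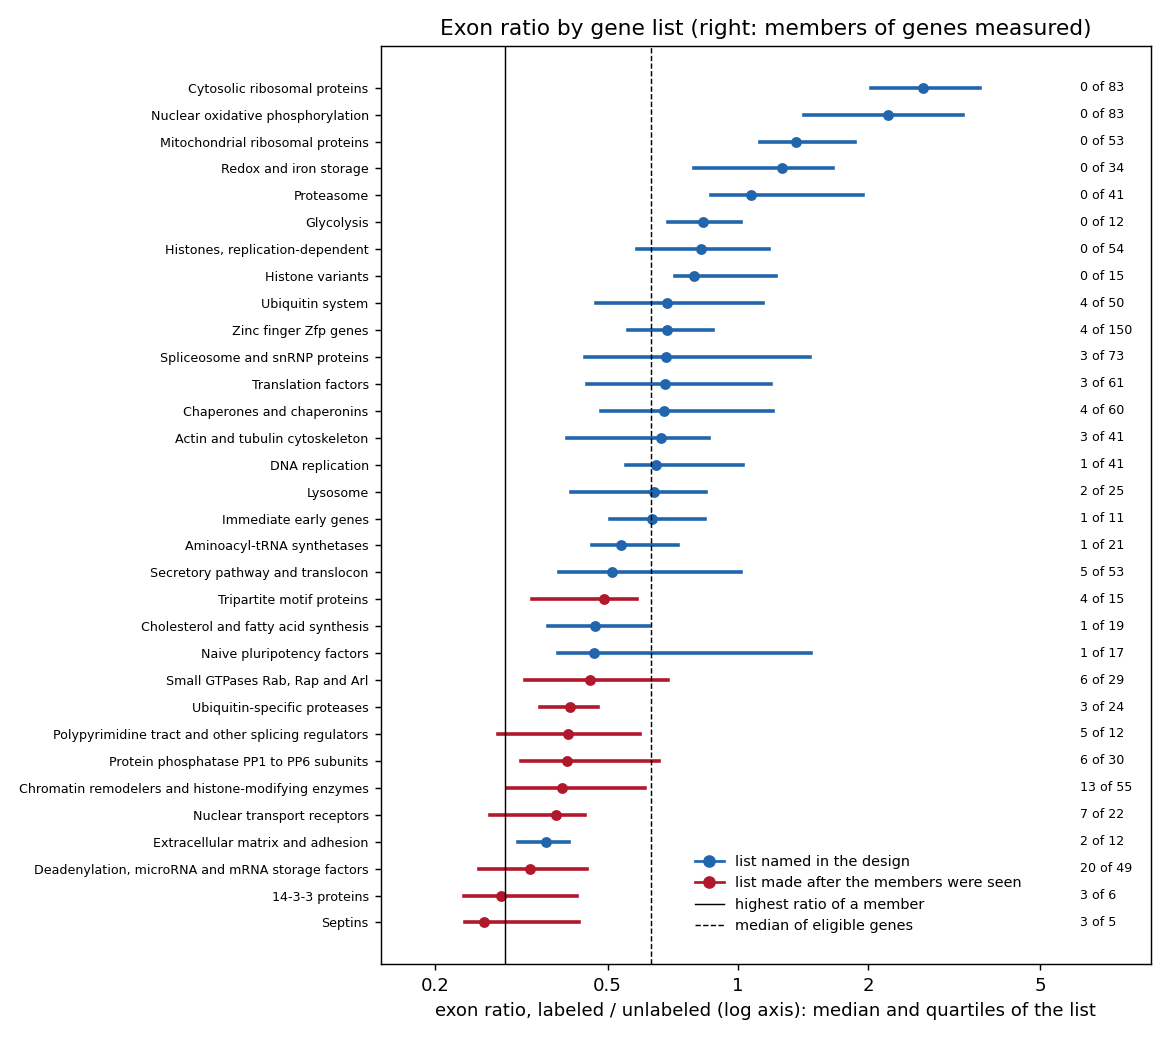
Median (point) and quartiles (line) of the labeled to unlabeled exon ratio (x axis, log) in each gene group (rows), blue for groups named in the design and red for groups drawn up after the chosen genes were seen, with the number among the 300 of those eligible at the right. The solid vertical line is the highest ratio of a chosen gene, 0.290, the dashed one the median of eligible genes, 0.631, and the ribosomal protein and oxidative phosphorylation groups lie far to the right of both.

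A further 10 groups were drawn up after the 300 genes had been seen, so their counts only describe which kinds of genes are present. Factors of deadenylation, microRNA action and mRNA storage had 20 of 49 genes (40.8%) among the 300. Lin28a, which binds let-7 precursors and mRNAs, stood at 184.2 in labeled and 1146 in unlabeled RNA (exon ratio 0.161). G3bp2, Caprin1, Usp10 and Ubap2, which meet in or near stress granules, had ratios of 0.179 to 0.231. Cnot7, a deadenylase, had 85.8 and 410.1 (0.209), and Cnot1, the scaffold of the same complex, 282.5 and 1011 (0.279).

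Dicer1, which cuts microRNA precursors, had 56.6 and 235.8 (exon ratio 0.240), and Ago2, which carries microRNAs, 87.4 and 312.7 (0.279). Trim71, a let-7 target and RNA-binding ligase, had 207.7 and 821.4 (0.253), Ddx6, a helicase of translational repression, 88.3 and 333.2 (0.265), and Mov10, another helicase, 43.9 and 169.0 (0.260). The group also held Khsrp, Larp4, Lsm14b and Igf2bp2, together with 3 of 4 eligible Pabpc genes. Pabpc2 and Pabpc6 are single-exon copies with exon ratios of 0.215 and 0.233, close to the 0.247 of Pabpc1. They shared 0.352% and 0.532% of their 31-base words with other genes, and Pabpc1 33.4%. Of all 49 genes of the group, 41 were below the median exon ratio of eligible genes, and the group median was 0.332. Both values contain the 20 genes that were chosen by this ratio.

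Nuclear transport receptors had 7 of 22 genes (31.8%) among the 300. Xpo1, the main exporter of proteins with nuclear export signals, had 229.6 in labeled and 1517 in unlabeled RNA (exon ratio 0.151). Cse1l, which returns importin alpha to the cytoplasm, had 265.6 and 1271 (0.209), and Kpna4, an importin alpha, 94.2 and 362.8 (0.260). Tnpo1, Ipo8, Kpna6 and Xpot were the others. Of the 22 genes of the group, 20 lay below the median of all eligible genes, a count that contains the 7 chosen by this ratio.

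The 14-3-3 genes had 3 of 6, Ywhae, Ywhaz and Ywhag, the last with 163.9 and 712.5 (exon ratio 0.230). Phosphatase subunits had 6 of 30, led by Ppp1cb, a catalytic subunit of protein phosphatase 1, with 78.6 and 466.7 (0.168). Small GTPases had 6 of 29, among them Rab6a, which acts in Golgi transport, with 129.4 and 575.2 (0.225). Splicing regulators had 5 of 12, among them Ptbp1, a repressor of neuronal exons, with 276.9 and 965.1 (0.287), its paralog Ptbp3 (0.213), Msi2, Rbfox2 and Celf1.

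Chromatin remodelers and histone-modifying enzymes had 13 of 55 (23.6%). Smarca5, the ISWI remodeling ATPase, had 255.3 and 939.3 (exon ratio 0.272), Jarid2, a partner of the Polycomb complex, 534.4 and 1964 (0.272), and Rnf2, the Polycomb ubiquitin ligase, 60.1 and 243.6 (0.247). The Jarid2 value is that of a fragment of 476 bases. Uhrf1, which targets maintenance DNA methylation, had 113.4 and 405.9 (0.279). Dnmt3c, with 31.1 and 130.4 (0.238), shared 31.9% of its 31-base words with other genes and is uncertain. Ubiquitin-specific proteases had 3 of 24, tripartite motif proteins 4 of 15 and septins 3 of 5, of which 2 were gene entries of Sept2 with shared sequence. Most of the 300 genes, 199, were in none of the groups of either kind.

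By chromosome the share of eligible genes that were chosen was 0 of 7 on the Y chromosome and otherwise went from 2.21% (6 of 272) on chromosome 7 to 11.2% (19 of 169) on chromosome 15. The X chromosome gave 18 of the 300 genes and 9.52% of its 189 eligible genes. The share was 6.26% over all eligible genes and 9.80% on chromosome 1.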

How the data were processed

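Per the labels and the study's methods, the authors aligned reads to exonic and intronic sequences with STAR 2.5.0 and RSEM on mm10/GRCm38 (Ensembl v91 in the study) and deposited 1 exon and 1 intron value per transcript, called TPM, for 1 labeled and 1 unlabeled library. These other relative values sum in each column to 10 times a TPM total. No counts were used here.

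Of 121429 exon rows, 110366 were found in GENCODE M21 (49490 protein-coding), from which lengths, UTRs and sequences were taken. Genes were ranked as described. The 300 genes and all lists were chosen with earlier results of these data known. Genes were named by rule (the 10 lowest ratios, 10 highest means, 3 on each side of the limit, up to 3 per list with at least 3 genes, 3 highest and 3 lowest intron ratios, 5 highest means of all). Genes of the 10 later groups, genes of lists with fewer than 3, and those with depleted introns or printed sites were named after their values were seen. Rates followed the study's Eqs. 10 to 17 on 4000 grid points. Exact solutions were tested on simulated data without noise. The point of least misfit and the choice between several solutions were not tested. Medians have order-statistic, shares Wilson and site densities Poisson 95% intervals. Alternatives were other minimums (10, 100, 200), a pseudocount of 10, subsets of transcripts, gene sums, scaling, leakage subtraction and stricter filters. Scripts ran in Python 3.11.15 with pandas 2.3.3 and numpy 2.4.6, statistics in scipy 1.17.1, and plots in matplotlib 3.10.9.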

Additional observations from a re-analysis of the deposited data

How the results depend on the processing

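With 1 library per pool no replicate could be left out, and depth is unknown. No paired analysis was possible because each pool had 1 library and no result came from a test. Of 99 alternative values, 79 stayed within the interval of the reported value, or within 1.5 times for counts, and 20 moved. The 79 include values that could hardly move, so the tally does not measure stability. Dropping the mitochondrial chromosome left every value unchanged, since none of its coding genes was eligible. No cytosolic ribosomal protein or nuclear oxidative phosphorylation gene was among the lowest 300 in any alternative run for these counts. None of the genes lay below the diagonal in the alternatives run for that share, which the choice of low exon ratios nearly fixes. With a minimum mean of 10, 170 of the 300 genes were kept, the median exon ratio was 0.224, the intron ratio 4.17, the unspliced length 23344.5 bases, the number of uridines 629.5, the ln degradation rate -1.31 and the exon ratio of other transcripts 0.277. A minimum of 100 gave exon ratios of 0.272 for the 300 genes and 0.317 for other transcripts. A minimum of 200 kept 127 genes and gave 0.297 and 0.353. The median exon ratio was 0.281 with a pseudocount of 10 and 0.398 when divided by the median of eligible genes, which follow from the arithmetic. A pseudocount of 1 on introns gave an intron ratio of 3.82. The ln degradation rate was -1.62 over the 114 genes with an exact solution and -3.93 after subtraction of leakage (0.203 times the unlabeled value), which left 72 genes. With complete transcript models only, chosen after seeing the data, 251 of the 300 genes were kept and the medians were 0.260 for the exon ratio, 35746.5 bases for the unspliced length and 948 for uridines. The spliced length was then 3518 bases against 2410 in the other eligible genes, and the 3′ UTR 1538 against 683. Leaving out the ranked transcripts that share at least 50% of 31-base words, also chosen after seeing the data, kept 286 genes and moved none of the 11 results. For the moved values without a stated construction the cause was not tested.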
